A study of Mus musculus with 4 samples.

Results

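The 10 genes described here make, break down or sense prostaglandins, and they were chosen by name, from the cyclooxygenases through the terminal synthases to prostaglandin breakdown and the EP2 and EP4 receptors. The deposited table holds 11603 rows of Entrez genes, and 9 of the 10 members have one. Ptger2, the EP2 receptor gene, was not analysed here. RNA was sequenced from muscle stem cells of male C57BL/6 mice aged 4 to 5 months, sorted from the hindlimb as VCAM1+/CD31-/CD45-/Sca1-. In 2 libraries the cells carried, by their label, a conditional knockout of the nuclear corepressor gene Hairless (Hr), called Hr cKO below, and 2 more were labelled control. The Cre driver, the time of deletion, the genotype of the controls beyond that word, and whether each library came from 1 animal or from pooled animals were not stated in the sources used. P-values therefore measure only the spread between these libraries, which may be technical.

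Prostaglandins are lipid signals made from arachidonic acid. Phospholipases release the acid from membranes, a cyclooxygenase turns it into an unstable intermediate, and a terminal synthase turns that intermediate into prostaglandin E2, D2 or prostacyclin. The products leave the cell, act on receptors coupled to G proteins, and are taken up and inactivated. In skeletal muscle, prostaglandin E2 is known to act on muscle stem cells through EP4 and to aid repair after injury.

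Reads assigned to the listed genes numbered 21757211 to 34101213 per library. Levels are given as RPKM, read counts scaled by the authors to gene length and to a size per library, which allows genes of different length to be compared. The size behind the values came to 75.7% and 75.5% of the listed reads in Hr cKO 1 and 2, against 85.9% and 92.5% in control 1 and 2, so it was not the read total itself. The stem cell label was checked against 10 marker genes, all of which had a row. Pax7, the transcription factor that defines these cells, had 9.03 and 13.1 RPKM in Hr cKO 1 and 2, against 8.23 and 12.9 RPKM in control 1 and 2. Not all of the markers were alike in the groups. Itga7, the integrin alpha 7 gene, averaged 55.9 ± 8.40 RPKM in Hr cKO and 105 ± 19.5 RPKM in control (SD, n = 2 each; limma adjusted p of 0.163), without overlap, and Sdc4, the syndecan 4 gene, had 3031 and 3260 RPKM in Hr cKO, against 2121 and 1582 RPKM in control (limma adjusted p of 0.195). Myf5, a myogenic transcription factor gene, had 103 and 106 RPKM in Hr cKO, against 84.5 and 69.7 RPKM in control (limma adjusted p of 0.229). Chodl was also higher in Hr cKO and Spry1 lower, without overlap (limma adjusted p of 0.331 and 0.413). The groups overlapped for Pax7, Vcam1, Calcr, Cdh15 and Heyl. Among all genes the groups did not overlap for 51.2%, so separation of this kind was common. Hr itself (chromosome 14, 70552212 to 70573548, mm10) had 7.15 and 7.90 RPKM in the libraries labelled Hr cKO, against 9.28 and 8.94 RPKM in control. Its transcript was lower in both Hr cKO libraries but was not lost, and limma gave an adjusted p of 0.431. Values summed over a gene cannot show whether a part of the gene was deleted, so every direction below rests on the labels.

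The prostaglandin genes did not move together. Both Hr cKO values lay above both control values for Ptgds, Ptges3 and Ptger4, and below them for Ptgis, Ptges2 and Hpgd (3 members each way), while the groups overlapped for Ptgs1, Ptgs2 and Ptges. Among all genes 51.2% separated in this way, 25.0% above and 26.2% below, so 6 of 9 is near the background. By limma on log2(RPKM + 0.5), with Benjamini-Hochberg adjustment over all 11603 genes, 0 of the 9 members passed an adjusted p of 0.05, against a background of 0.00862% of all genes (1 gene). At an unadjusted p under 0.05 there were 2 members higher in Hr cKO (Ptgds and Ptges3) and 1 lower (Ptgis), against 18.0% of all genes in both directions, and limma-voom on the recovered reads also called 0 after adjustment. By the authors' deposited table, Ptgis alone of the 9 members had a q-value under 0.05, against 7.84% of all genes. The median log2 fold change over the 9 members was -0.08, beside -0.01 over all genes. With genotype as the only term, no fold change below is a called change by limma. With 2 libraries against 2, an exact permutation test of a single gene cannot give a two-sided p below 0.333.

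**Figure D1:**
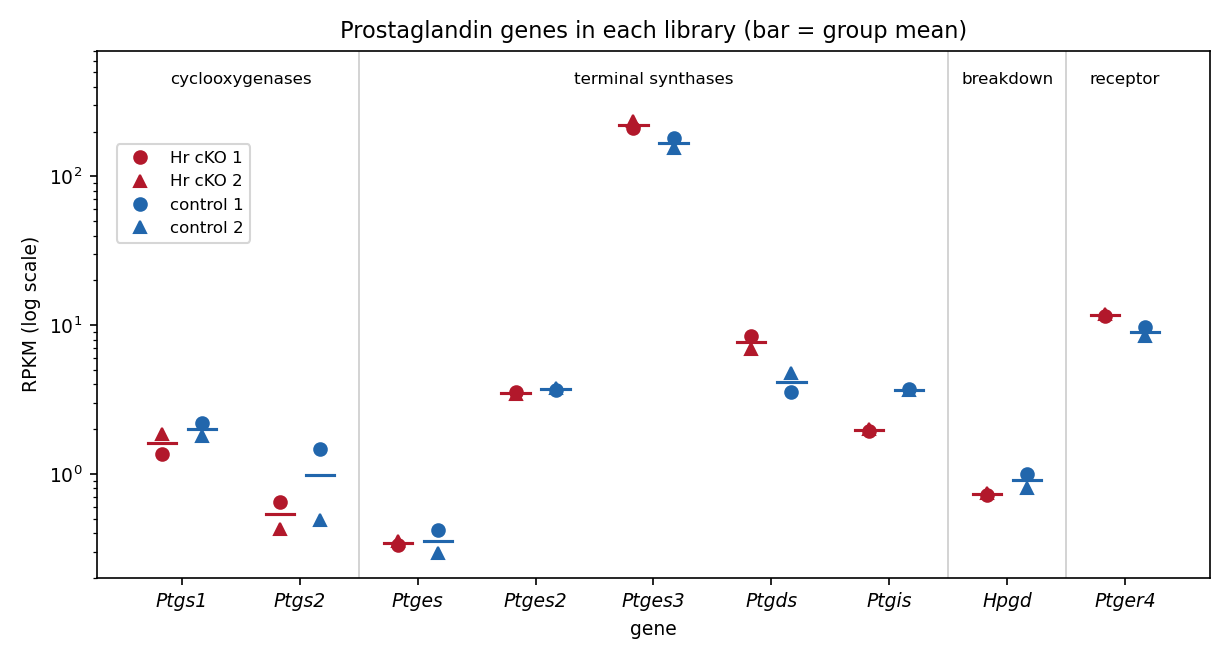
RPKM of each prostaglandin gene (log axis), 1 point per library, with Hr cKO in red left of control in blue and a bar at the mean of each group. Ptges3 stands at 156 to 235 RPKM, above all other members, and Ptgis and Ptgds show the widest gaps between groups, in opposite directions.

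Per kilobase, the members differed widely in level. Averaged over the 4 libraries, the order was Ptges3 (195 RPKM), Ptger4 (10.4), Ptgds (5.93), Ptges2 (3.61), Ptgis (2.83), Ptgs1 (1.80), Hpgd (0.819), Ptgs2 (0.755) and Ptges (0.350). The level of Ptges3 exceeded that of 96.8% of the genes listed, and that of Ptges exceeded 4.92%. Within the Hr cKO libraries no neighbours in this order overlapped. Within the control libraries Ptgds overlapped Ptges2, Ptges2 overlapped Ptgis, and Ptgs2 overlapped Hpgd. Ptgds stood at 4.36 and 3.43 times the level of Ptgis in Hr cKO 1 and 2, against 0.958 and 1.30 times in control 1 and 2. All but Ptgs2, Ptges and Hpgd (6 of 9) had a mean of at least 1 RPKM.

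The cyclooxygenases were low in all 4 libraries. Ptgs1 (chromosome 2, 36230426 to 36252272) encodes COX-1, the form that most tissues make at a steady level. It had 1.37 and 1.85 RPKM in Hr cKO, against 2.21 and 1.79 RPKM in control. The second Hr cKO library lay between the control values. The log2 fold change was -0.25 with a standard error of 0.20 and a 95% interval from -0.74 to 0.24, and the limma adjusted p was 0.544.

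Ptgs2 (chromosome 1, 150100031 to 150108227) encodes COX-2, the form induced by cytokines, growth factors and injury. It had 0.643 and 0.425 RPKM in Hr cKO, against 1.46 and 0.492 RPKM in control, from 76 and 32 reads against 155 and 47 reads. Control 1 stood apart from the other 3 libraries. Its 95% exact Poisson interval, which covers counting error only, ran from 1.24 to 1.71 RPKM, and the highest bound among the other 3 was 0.804 RPKM. The log2 fold change was -0.44 with a standard error of 0.33 and a 95% interval from -1.26 to 0.38 (limma adjusted p of 0.528), and without control 1 it was 0.05. Ptgs1 exceeded Ptgs2 in every library, at 2.13 and 4.35 times its level in Hr cKO and 1.51 and 3.64 times in control. Summed, the 2 cyclooxygenase transcripts came to 2.01 and 2.27 RPKM in Hr cKO, against 3.67 and 2.28 RPKM in control.

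The Ptgs2 promoter is shown because the gene is known as a target of inducible factors, among them C/EBP beta, whose transcript was abundant here (given with the inducers further on). The 250 bases upstream of the RefSeq start (GRCm38.p6, chr1:150099781-150100030, plus strand) are printed 5′ to 3′, with capitals at a C/EBP motif (TTGCNNAA) and a GC box (GGGCGG). Both strands were searched in this and the other promoters printed.
Ptgs2: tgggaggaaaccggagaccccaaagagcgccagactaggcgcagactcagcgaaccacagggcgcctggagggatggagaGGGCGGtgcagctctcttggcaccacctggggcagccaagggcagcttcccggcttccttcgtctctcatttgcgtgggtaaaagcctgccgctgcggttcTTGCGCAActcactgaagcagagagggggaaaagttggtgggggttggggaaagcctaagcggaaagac
The C/EBP match begins at base -69, counted from the start, and reads the same on both strands, so the match on one strand overlaps that on the other. The motif was found upstream of 9.56% of 32851 RefSeq promoter windows and, among the 8 members with a promoter entry, upstream of Ptgs2 alone. A match of letters is a description and does not show binding.

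The 3 prostaglandin E synthases were found at very different levels. Ptges3 (chromosome 10, 128058954 to 128077272) encodes p23, a cochaperone of HSP90 that is also described as the cytosolic prostaglandin E synthase. It had 210 and 235 RPKM in Hr cKO, against 180 and 156 RPKM in control. Both Hr cKO libraries exceeded both controls. The group means were 223 ± 17.3 and 168 ± 17.1 RPKM (SD, n = 2 each), 1.32-fold higher in Hr cKO, with a log2 fold change of 0.41 (SE 0.15; limma adjusted p of 0.254). An annotated processed pseudogene, Ptges3-ps, lies on chromosome 6, and the sources used do not say how reads matching both were counted. Over the 4 libraries, the genes with the profile nearest to that of Ptges3 among 10007 genes with a mean of at least 1 RPKM were Rps27a, Mfap1a and Setbp1, at Euclidean distances of 0.0217, 0.023 and 0.0262 between mean-centred log2 values.

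Ptges, the inducible microsomal synthase that is usually coupled to COX-2 (chromosome 2, 30889471 to 30929863), was the lowest of all members. It had 0.335 and 0.356 RPKM in Hr cKO, against 0.417 and 0.293 RPKM in control, on 23 to 38 reads. The Hr cKO values lay between the control values, and the log2 fold change of -0.01 had a 95% interval from -0.34 to 0.31. Ptges2, a membrane-associated synthase (chromosome 2, 32395896 to 32405772), had 3.55 and 3.43 RPKM in Hr cKO, against 3.68 and 3.78 RPKM in control. The groups did not overlap, but they differed by a ratio of 1.07 in favour of control, with a limma adjusted p of 0.818. Ptges3 stood at 59.2 and 68.5 times the level of Ptges2 in Hr cKO, against 48.9 and 41.2 times in control.

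The prostaglandin D and prostacyclin synthases had the largest fold changes of the members, in opposite directions. Ptgds (chromosome 2, 25466709 to 25470046) encodes the lipocalin-type prostaglandin D synthase, a secreted enzyme that also carries small lipids. It had 8.48 and 6.90 RPKM in Hr cKO, against 3.56 and 4.76 RPKM in control. Both Hr cKO values exceeded both control values. The means were 7.69 ± 1.11 and 4.16 ± 0.854 RPKM (SD, n = 2 each), 1.85-fold higher in Hr cKO. The log2 fold change was 0.82 (SE 0.21; limma adjusted p of 0.184), and the authors' deposited table gives a q-value of 0.0667.

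Ptgis (chromosome 2, 167191805 to 167240604) encodes prostacyclin synthase, a cytochrome P450 enzyme of vascular and stromal cells. It had 1.95 and 2.02 RPKM in Hr cKO, against 3.71 and 3.66 RPKM in control. The libraries of each group nearly coincided and the groups did not overlap. The means were 1.98 ± 0.0491 and 3.69 ± 0.0386 RPKM (SD, n = 2 each), 1.86-fold lower in Hr cKO. The log2 fold change was -0.75 (SE 0.16; limma adjusted p of 0.163). The q-value in the authors' deposited table is 0.00758. Leaving out any 1 library kept the log2 fold change between -0.77 and -0.73.

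Ptgis and Ptgds are also made by cells other than muscle stem cells, and in bulk RNA fewer cells of a type and less RNA per cell cannot be told apart. The markers of pericytes and smooth muscle, all 8 with a row, summed to 192 and 270 RPKM in Hr cKO, against 370 and 525 RPKM in control, in the same direction as Ptgis. Acta2, smooth muscle actin, made up most of that sum, and without it the sums were 44.8 and 64.8 RPKM in Hr cKO, against 49.0 and 51.0 RPKM in control. The 9 endothelial markers summed to 59.4 and 102 RPKM against 81.3 and 110 RPKM in the same order of groups. The 7 fibro-adipogenic markers with a row, of 9 listed, summed to 1317 and 1133 RPKM in Hr cKO, against 1296 and 1096 RPKM in control. Most of that sum was Gsn, and without it the sums were 490.2 and 338 RPKM in Hr cKO, against 291 and 249 RPKM in control, in the same direction as Ptgds. Much of this was Dpt, high in Hr cKO 1 alone, at 323 and 124 RPKM in Hr cKO, against 131 and 117 RPKM in control. Ly6a, which encodes Sca1, had 77.4 and 80.7 RPKM in Hr cKO, against 47.9 and 49.5 RPKM in control (limma adjusted p of 0.152). Cd34, a listed marker that is not specific to fibro-adipogenic cells, had 32.9 and 38.8 RPKM in Hr cKO, against 22.2 and 24.9 RPKM in control (limma adjusted p of 0.185). The rest of this list did not follow. Gsn was lower, with 827 and 795 RPKM in Hr cKO, against 1005 and 847 RPKM in control. The groups overlapped for Dcn, Lum, Dpt and Mfap5. Among the 4 Schwann cell markers with a row, of 6 listed, Pmp22 dominated, and the others summed to 7.79 and 18.6 RPKM in Hr cKO, against 16.1 and 18.1 RPKM in control. Tenocyte markers (4 of 4 with a row) summed to 25.5 and 52.5 RPKM in Hr cKO, against 55.2 and 32.2 RPKM in control. The 8 of 10 myofibre markers with a row came to 66.0 and 56.0 RPKM in Hr cKO, against 182 and 729 RPKM in control. Acta1 was the highest of them. Without it the sums were 29.5 and 24.1 RPKM in Hr cKO, against 38.2 and 274 RPKM in control, so control 2 alone stood far apart. No marker with a row was at 0 in all libraries, and the part of these cells in the levels of Ptgis and Ptgds was not tested. The sort was set to exclude cells with CD31 or Sca1 on their surface. Transcripts of both antigens were read in every library. Pecam1, which encodes CD31, had 5.51 and 9.66 RPKM in Hr cKO, against 8.04 and 11.9 RPKM in control, and Ly6a is given above.

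Breakdown of prostaglandins begins with Hpgd (chromosome 8, 56294552 to 56321046), the dehydrogenase that inactivates prostaglandin E2 and whose activity is known to be raised in aged mouse muscle. It had 0.721 and 0.744 RPKM in Hr cKO, against 1.004 and 0.808 RPKM in control, from 32 and 21 reads against 40 and 29 reads. The Hr cKO values lay just below the control values, and all 4 counting intervals overlapped. The log2 fold change was -0.19, with a 95% interval from -0.55 to 0.18 and a limma adjusted p of 0.543.

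Ptger4 (chromosome 15, 5206661 to 5244187) encodes EP4, a prostaglandin E2 receptor that raises cyclic AMP. It had 11.6 and 11.9 RPKM in Hr cKO, against 9.66 and 8.45 RPKM in control. Both Hr cKO libraries lay above both controls. The means were 11.7 ± 0.223 and 9.06 ± 0.852 RPKM (SD, n = 2 each), 1.29-fold higher in Hr cKO, with a log2 fold change of 0.36, a 95% interval from -0.03 to 0.74 and a limma adjusted p of 0.307. The exons of Ptger4 share 82 of 6648 bases with Ttc33 on the other strand. Under scaling by the sum of listed reads the median over all genes moved to -0.20, and the log2 fold changes of Ptger4, Ptges3, Ptgds and Ptgis were 0.13, 0.17, 0.59 and -0.92.

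The promoters of Ptgds, Ptges3 and Ptger4 are shown because these were the members with both Hr cKO values above both control values. Each is the 250 bases upstream of the RefSeq start in GRCm38.p6, 5′ to 3′ on the strand of the gene. They are chr2:25469750-25469999 (minus strand) for Ptgds, chr10:128058732-128058981 (plus strand) for Ptges3 and chr15:5244188-5244437 (minus strand) for Ptger4. The RefSeq start can differ from the gene span in the deposited table, and the Ptgds window lies inside that span and the Ptges3 window runs into it. Capitals mark the E-box CAGCTG bound by myogenic factors, the AP-1 motif TGANTCA, the GC box GGGCGG and the CCAAT box, on either strand.
Ptgds: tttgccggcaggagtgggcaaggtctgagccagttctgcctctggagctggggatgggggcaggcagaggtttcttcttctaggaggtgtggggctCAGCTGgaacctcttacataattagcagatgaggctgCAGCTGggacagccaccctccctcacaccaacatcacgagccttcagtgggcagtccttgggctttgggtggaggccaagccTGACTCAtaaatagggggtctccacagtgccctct
Ptges3: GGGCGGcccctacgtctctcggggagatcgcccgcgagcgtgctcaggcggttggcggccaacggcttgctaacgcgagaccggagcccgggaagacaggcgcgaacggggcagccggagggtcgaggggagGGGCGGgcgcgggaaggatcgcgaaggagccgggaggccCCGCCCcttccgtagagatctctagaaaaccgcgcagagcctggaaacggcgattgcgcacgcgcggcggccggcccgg
Ptger4: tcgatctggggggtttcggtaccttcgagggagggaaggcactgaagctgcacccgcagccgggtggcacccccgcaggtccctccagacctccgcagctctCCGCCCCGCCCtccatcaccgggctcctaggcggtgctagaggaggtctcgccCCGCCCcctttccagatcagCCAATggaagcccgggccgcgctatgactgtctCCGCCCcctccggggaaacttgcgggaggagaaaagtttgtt
Ptgds held the E-box at -154 and -117 and the AP-1 motif at -35. Ptges3 held the GC box at -250, -118 and -79. Ptger4 held it at -148, -143, -95 and -42, of which the first 2 overlap by 1 base, and the CCAAT box at -75. No motif was common to all 3. Of the 8 members with a promoter entry, the GC box was upstream of 5, against 32.7% of all RefSeq windows, the E-box of 2, against 13.0%, the AP-1 motif of 1, against 6.75%, and the CCAAT box of 1, against 33.8%. The nuclear receptor hexamer AGGTCA was searched because Hr is known as a corepressor of nuclear receptors. It was in 0 of the 8 windows and in 14.0% of all windows. Ptgis had no promoter entry and was not searched for any motif. Also in 0 of the 8 were the cyclic AMP response element TGACGTCA (1.55% of all windows) and the TATA box TATAAA (12.4%).

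Around the members, 65 other genes of the eicosanoid pathway were listed, of which 35 had a row. Limma called 0 of them after adjustment, and limma-voom also called 0. At an unadjusted p under 0.05 there were 9 higher and 1 lower, against 10.3% of all genes higher and 7.69% lower. By q-value, the authors' deposited table has 5 higher and 2 lower, against 3.59% of all genes higher and 4.26% lower. Of all 11603 genes, 5595 had a log2 fold change above 0 and 5999 below, the background for the splits given by list. The lists here and below were written with earlier results of these data known, so their counts and medians are descriptions.

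Among 14 genes of arachidonate release and reacylation, 10 had a positive log2 fold change and 4 a negative one, with a median of 0.20. With libraries scaled by the reads listed the split was 7 and 7 and the median -0.01, beside -0.20 over all genes. Pla2g12a, a secreted phospholipase A2, had 30.7 and 30.2 RPKM in Hr cKO, against 18.0 and 15.4 RPKM in control, a log2 fold change of 0.85 (limma adjusted p of 0.138; q of 0.00228 in the authors' deposited table). Pla2g2d, another secreted form known from dendritic cells and lymphoid tissue, had 1.93 and 3.17 RPKM in Hr cKO, against 0.7498 and 0.1068 RPKM in control, from 112 and 117 reads against 39 and 5 reads. Cd74, an antigen presentation gene listed as a blood marker, was high in Hr cKO 1 alone, at 98.9 and 16.7 RPKM in Hr cKO, against 10.1 and 14.5 RPKM in control, while the other 7 blood markers with a row summed to 12.7 and 19.5 RPKM in Hr cKO, against 17.3 and 17.1 RPKM in control. The sort was set to exclude cells with CD45. Ptprc, which encodes it, had 13 and 12 reads in Hr cKO, against 2 and 12 reads in control. The part of blood cells in the level of Pla2g2d was not tested.

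Anxa1, annexin A1, which restrains phospholipase A2 and inflammation, had 251 and 212 RPKM in Hr cKO, against 166 and 122 RPKM in control (limma adjusted p of 0.194). It was the most abundant gene of this list. Lpcat3, which puts polyunsaturated chains back into phospholipids, had 21.5 and 19.0 RPKM in Hr cKO, against 14.3 and 14.7 RPKM in control (limma adjusted p of 0.212). Mgll, the lipase that frees arachidonate from the endocannabinoid store, was high in Hr cKO 2 alone, with 9.33 and 21.9 RPKM in Hr cKO, against 9.38 and 11.1 RPKM in control. The other 7 genes with a mean of at least 1 RPKM had smaller log2 fold changes, and none passed limma's adjustment. Pla2g15, the lysosomal phospholipase, and Pla2g6, a calcium-independent one, were 1.467-fold and 1.201-fold higher in the Hr cKO mean. Acsl4, which activates arachidonate, was 1.10-fold higher, Pla2g16 1.13-fold and Mboat7 1.04-fold. Plaa, the phospholipase A2 activating protein, and Daglb, a diacylglycerol lipase, were 1.28-fold and 1.17-fold lower.

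Other prostanoid synthases and reductases had 6 genes with a row, with 4 positive and 2 negative log2 fold changes. With libraries scaled by the reads listed the split was 2 and 4, beside a median of -0.20 over all genes. The median log2 fold change of the list was 0.14 and rested on single libraries. It was -0.07 without control 1, 0.00 without Hr cKO 2, 0.25 without Hr cKO 1 and 0.33 without control 2. Cbr3, a carbonyl reductase, had 15.3 and 13.6 RPKM in Hr cKO, against 9.66 and 10.7 RPKM in control (limma adjusted p of 0.217). Akr1b3, an aldose reductase that can make prostaglandin F2 alpha, had 47.1 and 45.5 RPKM in Hr cKO, against 36.8 and 37.3 RPKM in control. Cbr1, which reduces prostaglandin E2, and Fam213b, a prostamide synthase, overlapped between the groups. Hpgds, the haematopoietic prostaglandin D synthase, was at the edge of detection and is named after its values were seen, with 0 and 0 reads in Hr cKO, against 8 and 4 reads in control.

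Among the other prostanoid receptors, 4 of 9 had a row, with 3 positive and 1 negative log2 fold changes. With libraries scaled by the reads listed the split was 2 and 2, beside a median of -0.20 over all genes. Ptger1, the EP1 receptor gene, had 0.851 and 1.24 RPKM in Hr cKO, against 1.15 and 1.08 RPKM in control. Its level was far below that of Ptger4 in every library. Pparg, a nuclear receptor that binds prostaglandin D2 derivatives, had 3.98 and 4.33 RPKM in Hr cKO, against 3.80 and 2.68 RPKM in control, and Ptgfrn, a binding partner of the prostaglandin F receptor, had 5.44 and 5.10 RPKM against 5.18 and 4.71 RPKM in the same order of groups. The limma adjusted p was 0.857 for Ptger1, 0.456 for Pparg and 0.819 for Ptgfrn.

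Genes of prostaglandin transport and breakdown split evenly, with 3 of 6 positive and 3 negative. Slco2a1, the prostaglandin transporter that carries prostaglandins into cells for inactivation, had 7.95 and 9.75 RPKM in Hr cKO, against 5.50 and 3.46 RPKM in control, a 1.98-fold difference of means. Its log2 fold change was 0.93 (SE 0.25; limma adjusted p of 0.189), and its q-value in the authors' deposited table is 0.0077. Slco4a1, an organic anion transporter, had 2.53 and 1.41 RPKM in Hr cKO, against 0.683 and 0.479 RPKM in control (limma adjusted p of 0.168; q of 0.000336 in the authors' deposited table). Both transporters were among the 3 of 6 genes in this list with all Hr cKO values above all control values, against 25.0% of all genes. Slco3a1, a related transporter, went the other way, with 2.95 and 2.25 RPKM in Hr cKO, against 3.91 and 3.50 RPKM in control. The reductases that act after Hpgd also differed in direction. Ptgr1 had 8.13 and 7.77 RPKM in Hr cKO, against 4.77 and 5.82 RPKM in control, while Ptgr2 had 3.91 and 4.47 RPKM in Hr cKO, against 5.24 and 6.19 RPKM in control (limma adjusted p of 0.216 and 0.312). In the lipoxygenase and leukotriene branch Lta4h, the leukotriene A4 hydrolase, was the 1 gene of 5 above 1 RPKM, at 62.7 and 60.5 RPKM in Hr cKO, against 57.0 and 58.0 RPKM in control.

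**Figure D2:**
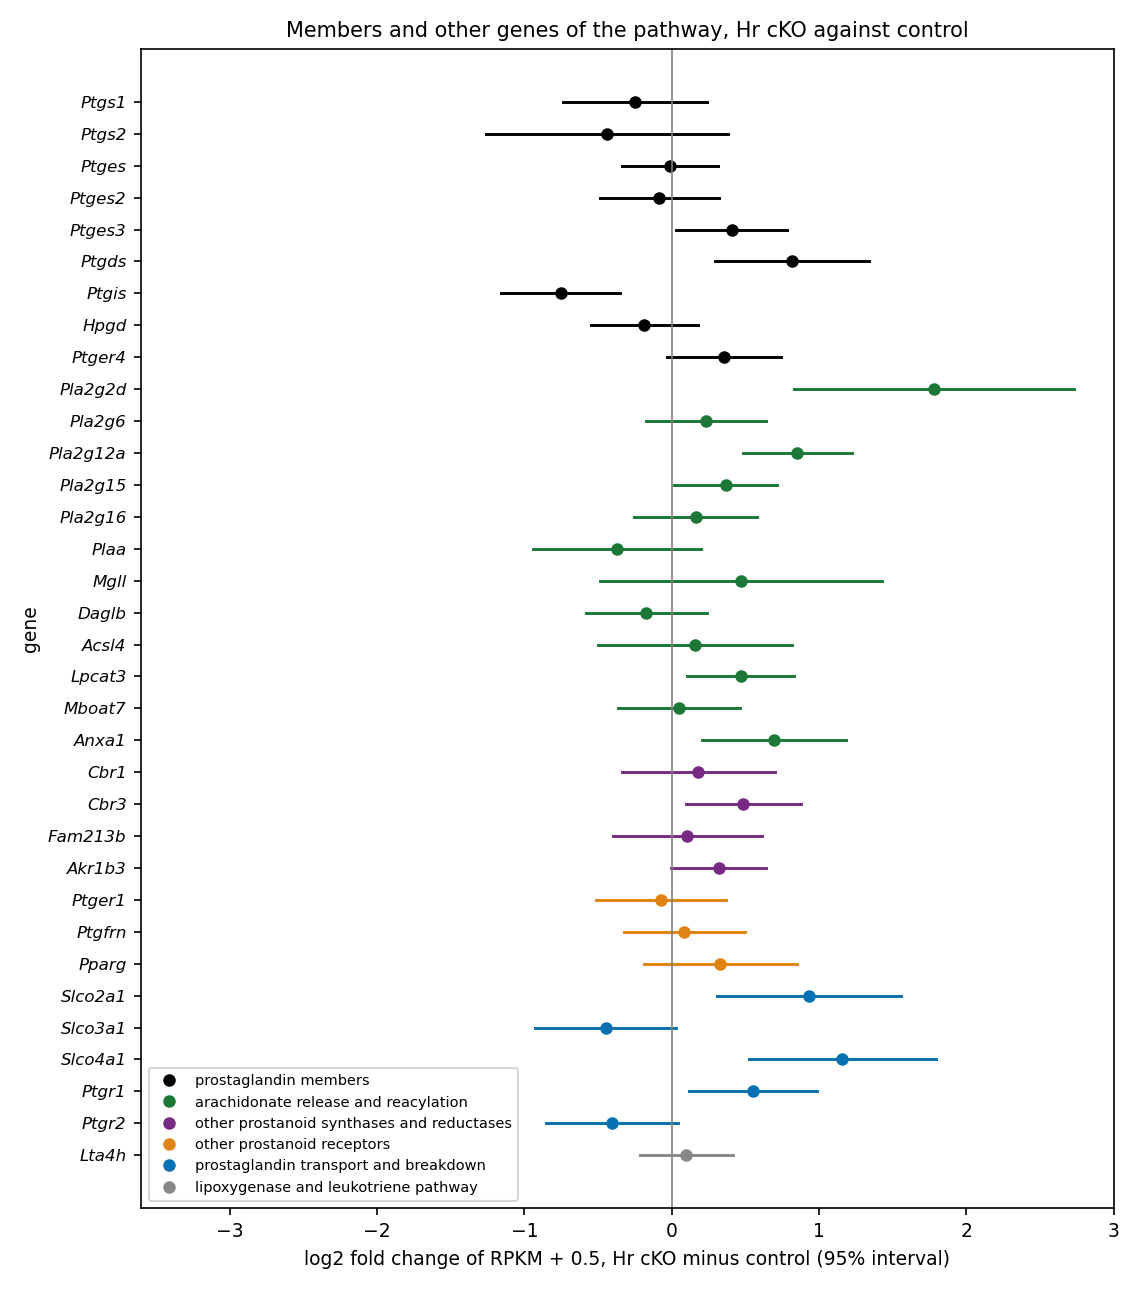
Log2 fold change of RPKM + 0.5, Hr cKO minus control, with the 95% interval from limma, for the 9 prostaglandin members (black) and the other pathway genes with a mean of at least 1 RPKM, coloured by role. Ptgis and Ptgds sit on opposite sides of 0 at -0.75 and 0.82, Pla2g2d is farthest to the right at 1.78, and no gene shown passed adjustment over all genes.

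Downstream of EP4, the 25 genes of the signal chain had a median log2 fold change of 0.00, with 13 positive and 12 negative. With libraries scaled by the reads listed 5 were positive and 20 negative, with a median of -0.19 beside -0.20 over all genes. Without Hr cKO 2 the split was 8 and 17. In the chain limma called 0 after adjustment, with 1 higher and 2 lower at an unadjusted p under 0.05, near the background of 10.3% of all genes higher and 7.69% lower. Prkar1a, the regulatory subunit of protein kinase A, was the most abundant, at 349 and 322 RPKM in Hr cKO, against 267 and 289 RPKM in control. The phosphodiesterase gene Pde4b, which degrades cyclic AMP, followed at 240 and 229 RPKM in Hr cKO, against 187 and 143 RPKM in control. Crtc2, a coactivator of CREB, had 31.7 and 29.5 RPKM in Hr cKO, against 36.3 and 31.3 RPKM in control. The catalytic subunits of protein kinase A, named after their values were seen, were the 2 members lower at an unadjusted p. Prkaca had 18.0 and 21.8 RPKM in Hr cKO, against 29.1 and 34.9 RPKM in control, and Prkacb had 4.38 and 5.44 RPKM in Hr cKO, against 6.73 and 9.47 RPKM in control (limma adjusted p of 0.183 and 0.229).

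Genes that respond to cyclic AMP and CREB, which many other stimuli also induce, had a median log2 fold change of 0.53 over 15 genes. There were 13 positive and 2 negative, and 10 had both Hr cKO values above both controls, against 25.0% of all genes. Limma called 0 after adjustment, with 6 higher and 0 lower at an unadjusted p under 0.05, against 10.3% and 7.69% of all genes. With libraries scaled by the reads listed the split was 9 positive and 6 negative and the median 0.29, beside -0.20 over all genes. Without Hr cKO 2 the median of the list was 0.28. Fos had 1986 and 2264 RPKM in Hr cKO, against 1325 and 1214 RPKM in control, Dusp1, a MAP kinase phosphatase, had 990 and 730 RPKM against 545 and 449 RPKM, and Atf3 had 405 and 657 RPKM against 322 and 324 RPKM, in the same order of groups. Crem, which encodes a cyclic AMP-induced repressor and was named after its values were seen, had 46.3 and 52.7 RPKM in Hr cKO, against 28.4 and 23.1 RPKM in control (limma adjusted p of 0.140; q of 0.00255 in the authors' deposited table). Nr4a2, also named after its values were seen and known as an effector of prostaglandin E2 in mouse muscle stem cells, had 51.9 and 71.9 RPKM in Hr cKO, against 48.6 and 56.4 RPKM in control. The groups overlapped for Nr4a2.

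The list of inducers of Ptgs2 and proteins that bind its mRNA ranged widely in level. Of 18 genes, 14 had a positive log2 fold change and 4 a negative one, with a median of 0.30, and limma called 0 after adjustment, with 3 higher and 0 lower at an unadjusted p under 0.05, against 10.3% of all genes higher and 7.69% lower. The median was 0.14 without control 2 and 0.19 without Hr cKO 2. With libraries scaled by the reads listed it was 0.07, beside -0.20 over all genes, and the split was 11 and 7. The cytokine genes Il1b and Tnf, named after their values were seen, were low, with means over the 4 libraries of 1.05 and 1.67 RPKM. The 3 most abundant genes of the list follow. Cebpb, an inducer of Ptgs2, had 2213 and 2971 RPKM in Hr cKO, against 1272 and 1409 RPKM in control (limma adjusted p of 0.173). Zfp36, tristetraprolin, which destabilises mRNAs with AU-rich elements including that of Ptgs2, had 1223 and 2056 RPKM in Hr cKO, against 1115 and 1230 RPKM in control. Nfkbia, the inhibitor of NF-kappa-B, had 1135 and 1613 RPKM in Hr cKO, against 840 and 745 RPKM in control (limma adjusted p of 0.196). Cebpb and Nfkbia were among the 7 of 18 genes with both Hr cKO values above both control values, against 25.0% of all genes. The groups overlapped for Zfp36.

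The HSP90 partners of p23 had positive log2 fold changes in 10 of 10 genes, as Ptges3 did, with a median of 0.41. Of all 11603 genes, 5595 were above 0. With libraries scaled by the reads listed 9 partners were positive and 1 negative, with a median of 0.18 beside -0.20 over all genes. The same split was seen without control 2, where the median was 0.27. Limma called 0 after adjustment, with 5 higher and 0 lower at an unadjusted p under 0.05, against 10.3% of all genes higher and 7.69% lower. The authors' deposited table has 2 higher by q-value, against 3.59% of all genes. Hspa8, a constitutive HSP70 chaperone, had 2000 and 2359 RPKM in Hr cKO, against 1419 and 1340 RPKM in control. Hsp90ab1 had 1897 and 1754 RPKM in Hr cKO, against 1545 and 1230 RPKM in control, and Hsp90aa1 had 1411 and 1287 RPKM against 946 and 650 RPKM in the same order of groups. All 3 were among the 8 of 10 genes with both Hr cKO values above both control values, against 25.0% of all genes.

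**Figure D3:**
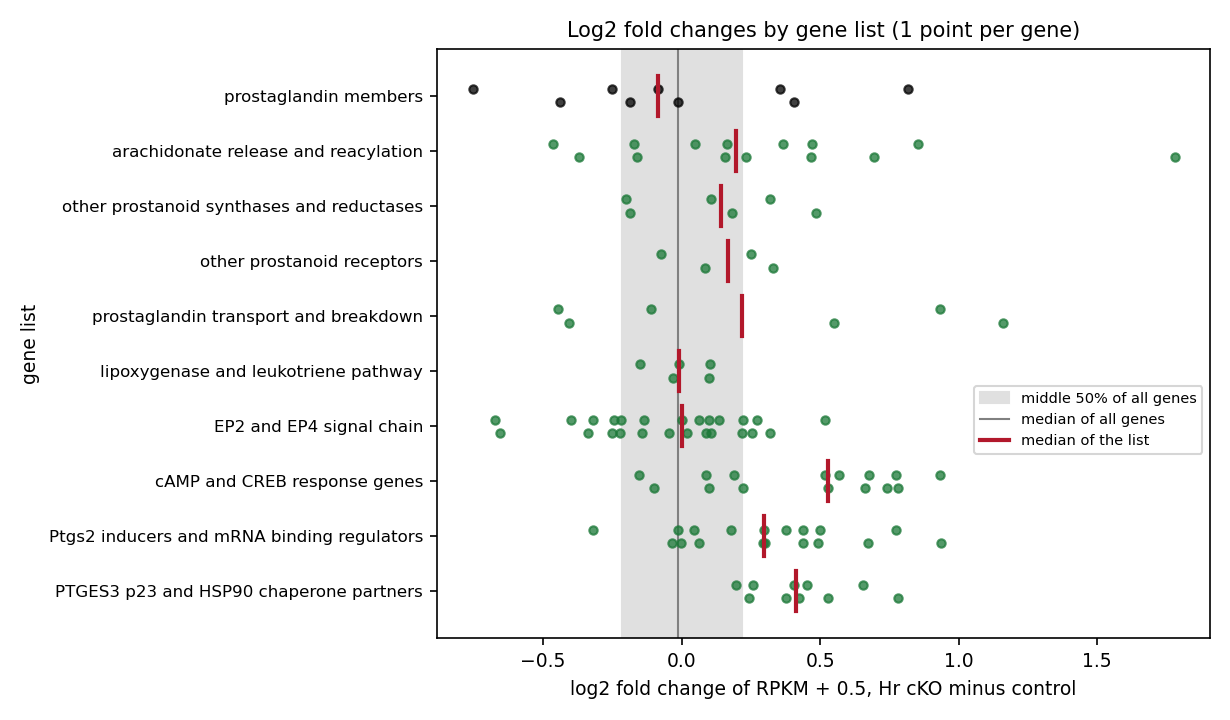
Log2 fold changes of RPKM + 0.5, Hr cKO minus control, for the prostaglandin members and 9 related gene lists, 1 point per gene, with the median of each list in red and the range between the quartiles of all genes (-0.22 to 0.22) shaded. The members spread from -0.75 to 0.82 around a median of -0.08, and the lists of cyclic AMP response genes and HSP90 partners have medians of 0.53 and 0.41. The lists were chosen with earlier results of these data known, so these medians are descriptions.

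Across the settings tried, Ptgis and Ptges2 stayed below 0 and Ptgds, Ptges3 and Ptger4 above 0 in every fit, as did Ptgs1 and Hpgd below 0. Ptgs2 and Ptges each crossed 0 when a library was left out, Ptgs2 without control 1 and Ptges without Hr cKO 1 or without control 1.

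**Figure D4:**
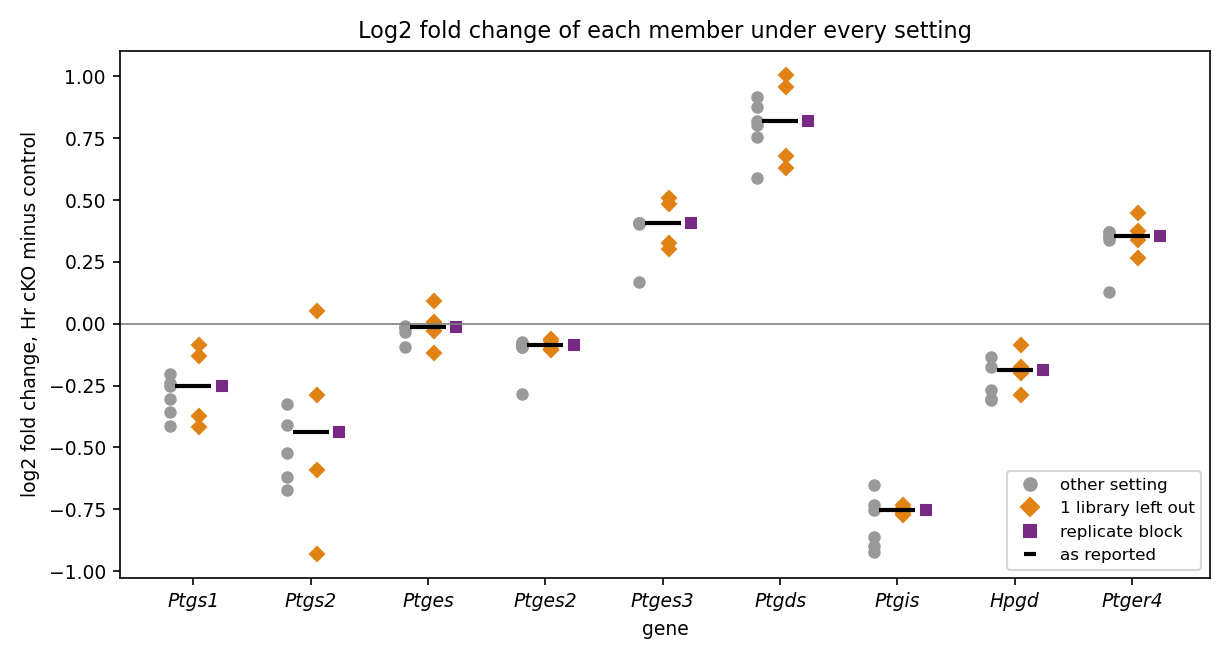
Log2 fold change of each prostaglandin gene, Hr cKO minus control, as reported (black bar), with 1 library left out (orange), with the replicate number as a block (purple) and under other scalings, pseudocounts, filters or limma-voom (grey). Ptgis stays between -0.92 and -0.65 and Ptgds between 0.59 and 1.01, while Ptgs2 ranges from -0.93 to 0.05.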

How the data were processed

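The deposited table gives 1 value per gene and library. STAR, Trim Galore, featureCounts (Subread) and edgeR, with the build mm10 (GRCm38), are named per the submitters' processing notes. Their versions, the strand setting and the filter behind the 11603 rows were not stated. The header names no unit. The deposited values were taken as RPKM made by the authors, because RPKM times gene length, divided by 1 step fitted per library, gave whole reads (tolerance 0.01) for 100% of values in every library. The deposited q-value (an adjusted p-value) is the authors' own, from a model not given. Columns starting Ct were matched to control and those starting Fl, which no label spells out, to Hr cKO. No other sample columns were present. Gene lengths in bases are, per the file headers, in the table.

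limma 3.58.1 in R 4.3.3, with a mean-variance trend and genotype as the only term, was fitted to log2(RPKM + 0.5) of the 4 libraries. P-values were adjusted over all 11603 genes by Benjamini-Hochberg (threshold 0.05). This scale understates changes of low genes, and N-fold values are ratios of mean RPKM. The fit was also run on simulated data, with 1 spread set for all genes and planted changes larger than those of the members. That run does not measure the power to call the members here. The members and gene lists were chosen with earlier results of these data known. Named genes are all members, pathway genes with a mean of at least 1 RPKM, the 3 most abundant of each signalling list, and others said to be named after their values were seen. List genes were matched by symbol or Entrez ID (RefSeq, GRCm38.p6). Alternatives were pseudocounts of 0.1 and 1, a filter at 1 RPKM, scaling by the reads listed or by TMM (reimplemented), a replicate block, each library left out, and limma-voom on the recovered reads, added after the data were seen.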

Additional observations from a re-analysis of the deposited data

How the results depend on the processing

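Over 11 alternatives the 9 members gave 96 refitted values, of which 91 kept their direction and their side of the threshold. In 3 the direction changed: Ptges had 0.01 without Hr cKO 1 and 0.0934 without control 1, and Ptgs2 had 0.0523 without control 1. Leaving out 1 library put Ptgs2 between -0.93 and 0.0523 and Ptges between -0.12 and 0.0934. In the other 2, Ptgds and Ptgis passed with the replicate block (limma adjusted p of 0.0480 and 0.0368).

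Hr cKO 1 and control 1 share a number, and their deviations from the group means correlated across genes (r = 0.41), but no label says that the number marks a shared litter or day. The replicate block leaves 1 residual degree of freedom before the variances are pooled. With it limma called 1004 of all 11603 genes (591 higher, 413 lower), 2 of the 9 members and 13 of the 101 related genes. Without the block the calls were 1, 0 and 0. limma-voom called 11 genes and 0 members. Leaving out 1 library gave 0 to 1 genes called, 0 members called, and a member median between -0.12 and 0.0523. That median was -0.29 with libraries scaled by the reads listed, where the median of all genes moved to -0.20, and 0.14 over the 6 members with at least 1 RPKM. The shift under the reads listed follows from the size per library behind the values, a smaller share of those reads in Hr cKO. TMM factors were likewise lower in Hr cKO, at 0.918 and 0.925, against 1.05 and 1.12 in control. With TMM scaling the member median was -0.0834, beside -0.0843 as reported, so TMM scaling was nearly a repeat of the main fit and hardly a separate check. The median of 0.14 follows from the filter, which dropped Ptgs2, Ptges and Hpgd, with log2 fold changes of -0.44, -0.01 and -0.19. The log2 fold changes of the members kept were unchanged. The causes of the other shifts were not tested.

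The planned edgeR and DESeq2 tests were not run, because the deposited values are RPKM. Ptgs2, Ptges and Hpgd had 21 to 155 reads per library, which limits the precision of their values.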
